A study of Mus musculus with 24 samples.

Results

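Splenic natural killer (NK) cells of wild-type (WT) mice were compared with and without IL-15 treatment, by sequencing of poly(A) RNA. Libraries were taken by 3 labels, WT genotype, spleen as the tissue, and either IL-15 or naive as the treatment, which gave 4 IL-15 and 4 naive libraries, 8 of the 24 in the series. The other 16 libraries were 4 naive and 4 IL-15-treated spleen libraries of knockout (KO) mice lacking FcRγ, the product of Fcer1g, and 4 WT and 4 KO libraries of NK cells from tumour-bearing lung. KO spleen libraries served to estimate the spread and to test where the IL-15 change differed by genotype, and lung libraries entered 1 alternative fit. The WT libraries carry no engineered allele in the labels. How IL-15 was given, for how long, whether naive cells were handled alongside, and which strain, sex and age the mice had are not stated in the labels. Replicates are called biological replicates, but whether each is a separate animal is not stated, so p-values measure only the spread between these samples.

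IL-15 is the cytokine on which NK cells depend for survival. It binds the receptor chain IL-2Rβ (Il2rb) and the common γ chain (Il2rg), which signal through the kinases JAK1 and JAK3 to the transcription factor STAT5 and, in parallel, through PI3K and mTOR. In NK cells this pathway is known for feedback by SOCS proteins, of which CIS (Cish) is the best described, for protection by BCL2 family proteins, for cell growth and division, and for loading of granzymes and perforin into cytotoxic granules. Naive splenic NK cells are largely quiescent, circulating cells, kept in circulation by sphingosine 1-phosphate receptors under the control of the factor KLF2.

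The naive and IL-15 libraries stood apart. Totals ran from 24.6 to 32.1 M counts in the naive group and from 21.2 to 30.6 M in the IL-15 group, with 13507 to 14419 and 14201 to 15573 genes having a count. The leading principal component held 64.2% of the variance and separated the groups, and the next (10.7%) set IL-15 replicate 2 apart at −69.5. Correlations of log CPM were 0.95 to 0.988 within groups and 0.88 to 0.915 between them. All 10 NK cell markers were detected in both groups, and their summed level was 20400 to 22700 CPM (counts scaled to library size, on TMM-adjusted totals) in naive and 6920 to 8520 in IL-15 libraries. Platelet markers summed to 18.0 to 39.4 CPM in naive and 0.63 to 1.37 CPM in IL-15 libraries, where Pf4, Ppbp, Gp9 and Treml1 of 6 had no count. B cell markers summed to 190 to 228 against 122 to 140 CPM (Ebf1 at 0 in naive libraries), T cell markers to 216 to 253 against 254 to 368 CPM (Cd8b1 at 0 in both groups, Cd4 and Cd8a at 0 in IL-15 libraries), monocyte and macrophage markers to 7.25 to 12.3 against 18.1 to 23.5 CPM, and neutrophil markers to at most 0.24 CPM. The T cell markers did not move as 1: mean levels of Trbc1 (83.4 to 157 CPM), Lef1 (40.3 to 73.9) and Cd6 (0.403 to 3.84) were higher in IL-15 libraries, and those of Cd3d (19.1 to 3.42), Cd3g (7.92 to 2.11), Cd3e (1.9 to 0.332), Trbc2 (84.5 to 58.2) and Trac (2.08 to 1.2) were lower. The part of these and the other markers in the results was not tested. Mitochondrially encoded genes took 5.41 ± 0.624% of counts in naive and 2.06 ± 0.479% in IL-15 libraries (mean ± SD, n = 4 and 4). That difference of −3.34 percentage points had an exact permutation p of 0.0286 (two-sided), the smallest that 4 against 4 can give.

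The change also moved with the length of genes. Genes with under 1.5 kb of exons had a median log2 change of −0.34 (n = 1741), those of 5 to 10 kb 0.13 (n = 4036) and those of at least 10 kb 0.55 (n = 1132). With each library's length trend taken out, the medians lay between −0.05 and −0.01, which the removal brings about by its design. On that scale 6186 of 6994 calls kept their direction and their side of the threshold, while 11 were called in the opposite direction. Scaling by plain library totals in place of TMM raised the median of all genes by 0.30 log2 units, and on the TPM scale (counts per exon length) the median was 0.54. Direction on the TPM scale can differ from the calls. Proteasome genes, called lower or not at all, had summed TPM of 4400 in naive and 4551 in IL-15 libraries. For nuclear oxidative phosphorylation genes the sums were 8403 and 7871. Changes below are relative to the TMM scale, and TPM is otherwise used only to rank genes within a group. Where library totals turned the balance of rises and falls in a list, the counts on that scale are given. In bulk samples, fewer cells that express a gene and less of its RNA per cell cannot be told apart.

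**Figure D1:**
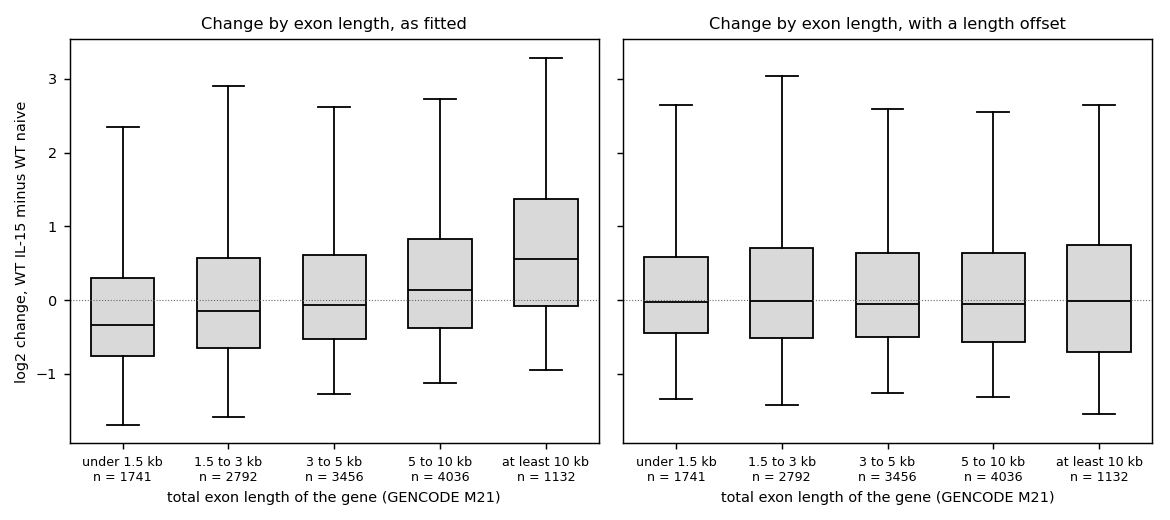
Log2 change of IL-15 over naive WT libraries (vertical axis) by total exon length (horizontal axis), as fitted on the left and with each library's length trend taken out on the right; boxes span the quartiles, lines the medians and whiskers the middle 90% of genes. The medians climb from −0.34 under 1.5 kb to 0.55 at 10 kb or more on the left. They lie between −0.05 and −0.01 on the right, where removal of the trend flattens them by design.

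Of 13344 genes tested, 3526 were higher (26.4%) and 3468 lower (26.0%) in IL-15 than in naive WT libraries at an adjusted p under 0.05 (edgeR quasi-likelihood test, Benjamini-Hochberg), together 52.4%. With so large a share called, the size of a change separates genes better than the call. Counts of rises and falls in the lists below are to be read beside these 26.4% and 26.0%. Changes of at least 2-fold were found in 2138 genes that rose (16.0%) and 936 that fell (7.01%), and of at least 16-fold in 293 and 74. Another 1674 calls were under 1.5-fold. For 84.9% of calls the 4 IL-15 libraries did not overlap the 4 naive ones; over all tested genes, 24.9% were higher and 23.8% lower without overlap. The median change over all tested genes was −0.01. With plain library totals the split was 4894 higher and 1888 lower, so 72.2% of calls were rises in place of 50.4%.

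The largest rises in genes with expression at or above 1 CPM included several that had no count in any naive library. Ak4, a mitochondrial adenylate kinase, stood at 0 in all naive libraries and at 13.8, 13.7, 9.81 and 16 CPM in the IL-15 libraries, at least 439-fold higher against a floor of 3 counts over the naive group. By the same floor, Zbtb32, a zinc finger repressor induced in activated lymphocytes, was at least 95.4-fold and the inhibitory receptor Ctla4 at least 68.4-fold higher. Tnnt2 (cardiac troponin T) and Insl3 (a peptide hormone) rose from 0 by at least 118-fold and 114-fold. Mki67, the proliferation antigen Ki-67, measured 4.82, 0.281, 2.07 and 2.17 CPM in the naive and 655, 497, 824 and 624 CPM in the IL-15 libraries. The lowest IL-15 library held 497 CPM and the highest naive one 4.82, a rise of 8.12 ± 0.55 log2 units (± SE, as for all log2 changes below; adjusted p = 8.92e-10). Among the 15 largest falls were Ppbp, Tubb1, Alox12, Pf4, Clec1b, Treml1 and Gp5, which platelets are known to express. Ppbp stood at 11.1, 5.33, 4.94 and 10.9 CPM in the naive libraries and at 0 in all IL-15 libraries, at least 327-fold lower, and Pf4 was at least 90.3-fold lower. These genes moved with the platelet marker sum given above, and the part of platelet RNA in their falls was not tested. Cyp17a1, a steroid-synthesis enzyme, stood at 6.57, 4.25, 4.94 and 4.81 CPM in naive libraries and was at least 209-fold lower, and Cyp11a1, another, fell from 1.41 ± 0.785 to 0.00752 ± 0.015 CPM.

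**Figure D2:**
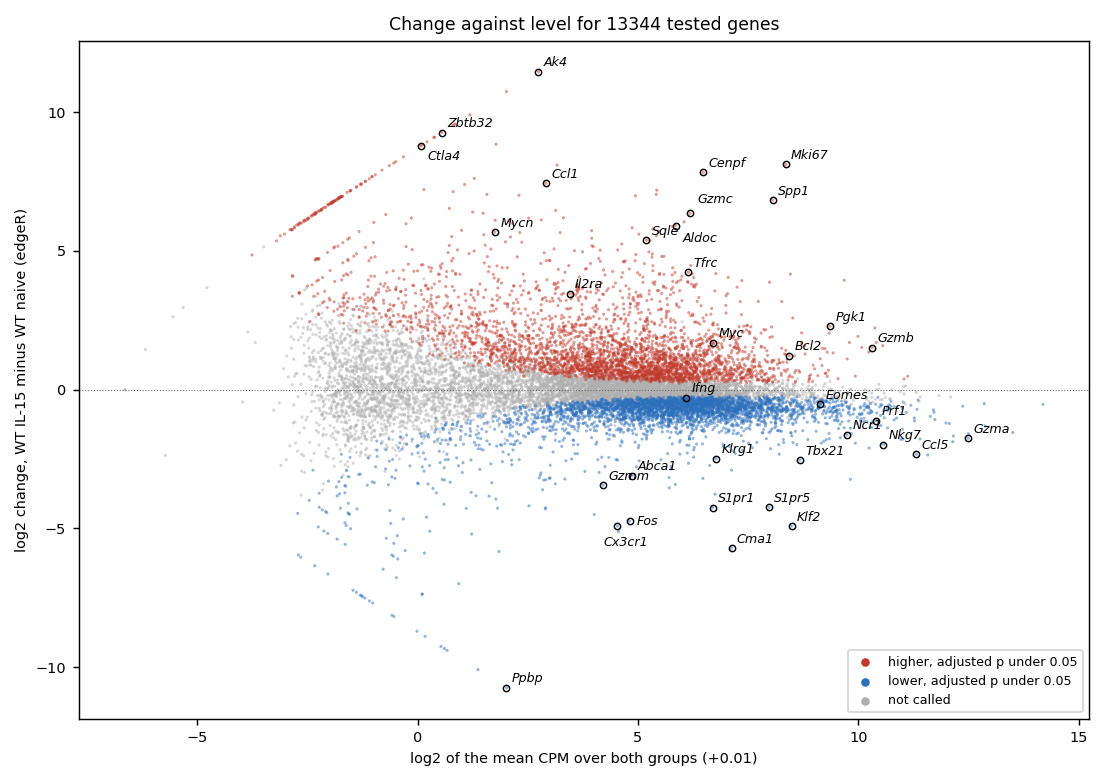
Log2 change of IL-15 over naive WT libraries (vertical axis) against the log2 of the mean CPM over both groups (horizontal axis) for the 13344 tested genes; red points were called higher, blue points lower and grey points were not called. Circles mark named genes; the slanted lines of points at the left edge are genes with no count in 1 of the groups, whose fitted change is no measured fold. Mki67, Cenpf and Spp1 lie highest among genes of high level, and Klf2, S1pr5 and Cma1 lowest.

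The IL-15 receptor chains Il2rb and Il2rg fell, while the high-affinity IL-2 receptor chain Il2ra rose. Il2rb fell by 0.71 ± 0.11 log2 units (adjusted p = 2.73e-05) and Il2rg by 0.78 ± 0.12 (adjusted p = 2.85e-05). Il2ra (CD25), which completes the high-affinity receptor for IL-2, measured 1.14, 3.05, 0.612 and 2.42 CPM in the naive and 21.1, 12.5, 23.8 and 22.7 CPM in the IL-15 libraries. The lowest IL-15 library held 12.5 CPM, above the highest naive one at 3.05 (rise of 3.45 ± 0.55, adjusted p = 3.49e-05). Il15ra, the chain that presents IL-15, did not pass (0.40 ± 0.21, adjusted p = 0.122), while Il15 itself fell by 2.04 ± 0.35. In 4 alternatives the rise of Il15ra passed. It did so on library totals (0.70, adjusted p = 0.0133) and with all 24 libraries fitted (0.49, adjusted p = 0.0371). It also did so with voom (0.50, adjusted p = 0.0279) and without naive replicate 2 (0.56, adjusted p = 0.0437). The kinases moved apart: Jak1 fell by 0.68 ± 0.13 and Jak3 rose by 0.82 ± 0.14. Stat5a rose by 0.32 ± 0.11 (adjusted p = 0.0198), a call that ended in 6 alternatives (without naive replicate 3 or IL-15 replicate 3 or 4, among them, with 0.12 and adjusted p = 0.327 under the length offset), and Stat5b stood at 0.06 ± 0.13 (adjusted p = 0.709). Of 20 receptor and JAK-STAT genes, all tested, 4 rose and 8 fell (median −0.10, against −0.01 over all genes); on library totals 7 rose and 6 fell.

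Feedback and target genes of STAT5 rose in part. Of 20 listed, all tested, 9 rose and 5 fell (median 0.21). Cish, the feedback inhibitor of IL-15 signalling, measured 9.47, 20.2, 17.7 and 18.6 CPM in the naive and 48.4, 60.3, 59.6 and 51.3 CPM in the IL-15 libraries. Every IL-15 library lay above every naive one, a rise of 1.73 ± 0.19 (adjusted p = 4.2e-07). Socs2 rose by 1.08 ± 0.20, Socs1 did not pass (0.33 ± 0.17, adjusted p = 0.104) and Socs3 fell by 1.02 ± 0.19. Socs1 was called higher in 3 alternatives. These were library totals (0.62, adjusted p = 0.00813), the 8 WT libraries fitted alone (0.33, adjusted p = 0.0405) and the length offset (0.41, adjusted p = 0.0411). Rises were also found for Tnfrsf9 (4-1BB, a costimulatory receptor; 116, 119.5, 101 and 108 CPM in the naive and 420.0, 496, 362 and 393 CPM in the IL-15 libraries), the kinase gene Cdk6 (2.09 ± 0.25) and Pim2 (0.90 ± 0.14), a survival kinase. Among the falls were the D-type cyclins Ccnd2 (−0.80 ± 0.12) and Ccnd3 (−0.72 ± 0.10).

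The promoter of Cish is shown because 2 copies of the STAT motif, TTCNNNGAA, sit at its start. It lies at chr9:107296409-107296708, plus strand (RefSeq, GRCm38.p6), 250 bases before to 50 after the start, with the motif in capitals, at bases 1 and 12 of the transcript.
Cish: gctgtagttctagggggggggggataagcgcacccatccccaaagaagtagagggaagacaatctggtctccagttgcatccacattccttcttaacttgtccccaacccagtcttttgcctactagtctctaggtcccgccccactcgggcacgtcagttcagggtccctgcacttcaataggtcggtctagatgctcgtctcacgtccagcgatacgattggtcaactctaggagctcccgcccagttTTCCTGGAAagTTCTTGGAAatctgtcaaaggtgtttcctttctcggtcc
In windows of this length, searched on both strands, the motif was found for 5 of 16 STAT5-list genes that had a window (31.2%), for 9.6% of all genes and for 8.3% of tested genes. A match describes letters, not binding.

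Survival genes of the BCL2 family did not move together. Bcl2, an inhibitor of cell death, measured 206, 196, 219 and 212 CPM in the naive and 483, 378, 543 and 539.7 CPM in the IL-15 libraries. The IL-15 libraries were all above the naive ones (rise of 1.22 ± 0.13, adjusted p = 2.57e-07). Mcl1, the BCL2 relative that NK cells are known to need, measured 545, 682, 688 and 713 CPM in the naive and 384, 373, 382 and 399 CPM in the IL-15 libraries. Here the naive libraries were the higher ones, without overlap (it fell by 0.77 ± 0.09, adjusted p = 1.8e-06). Bcl2l1, another inhibitor of cell death, fell by 0.80 ± 0.21 (not on library totals, −0.50, adjusted p = 0.0779) and Bcl2a1d rose by 2.72 ± 0.27; Bcl2a1d has near-identical copies, so its own value is uncertain. Of the death-promoting members, Pmaip1 (NOXA) fell by 1.79 ± 0.27, while Bcl2l11 (BIM) measured 121, 128, 168 and 147 CPM in naive and 184, 156, 217 and 205 CPM in IL-15 libraries, which overlap. Its rise of 0.43 ± 0.14 (adjusted p = 0.017) did not pass with the length offset (0.175, adjusted p = 0.226) or without naive replicate 1, naive replicate 2 or IL-15 replicate 3 (adjusted p of 0.059, 0.0532 and 0.0599). In all, 6 of 20 tested genes of 22 rose and 6 fell (30% each, median −0.16), near the 26.4% and 26.0% over all tested genes. On library totals 8 rose and 2 fell, and without IL-15 replicate 1, 5 rose and 3 fell.

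**Figure D3:**
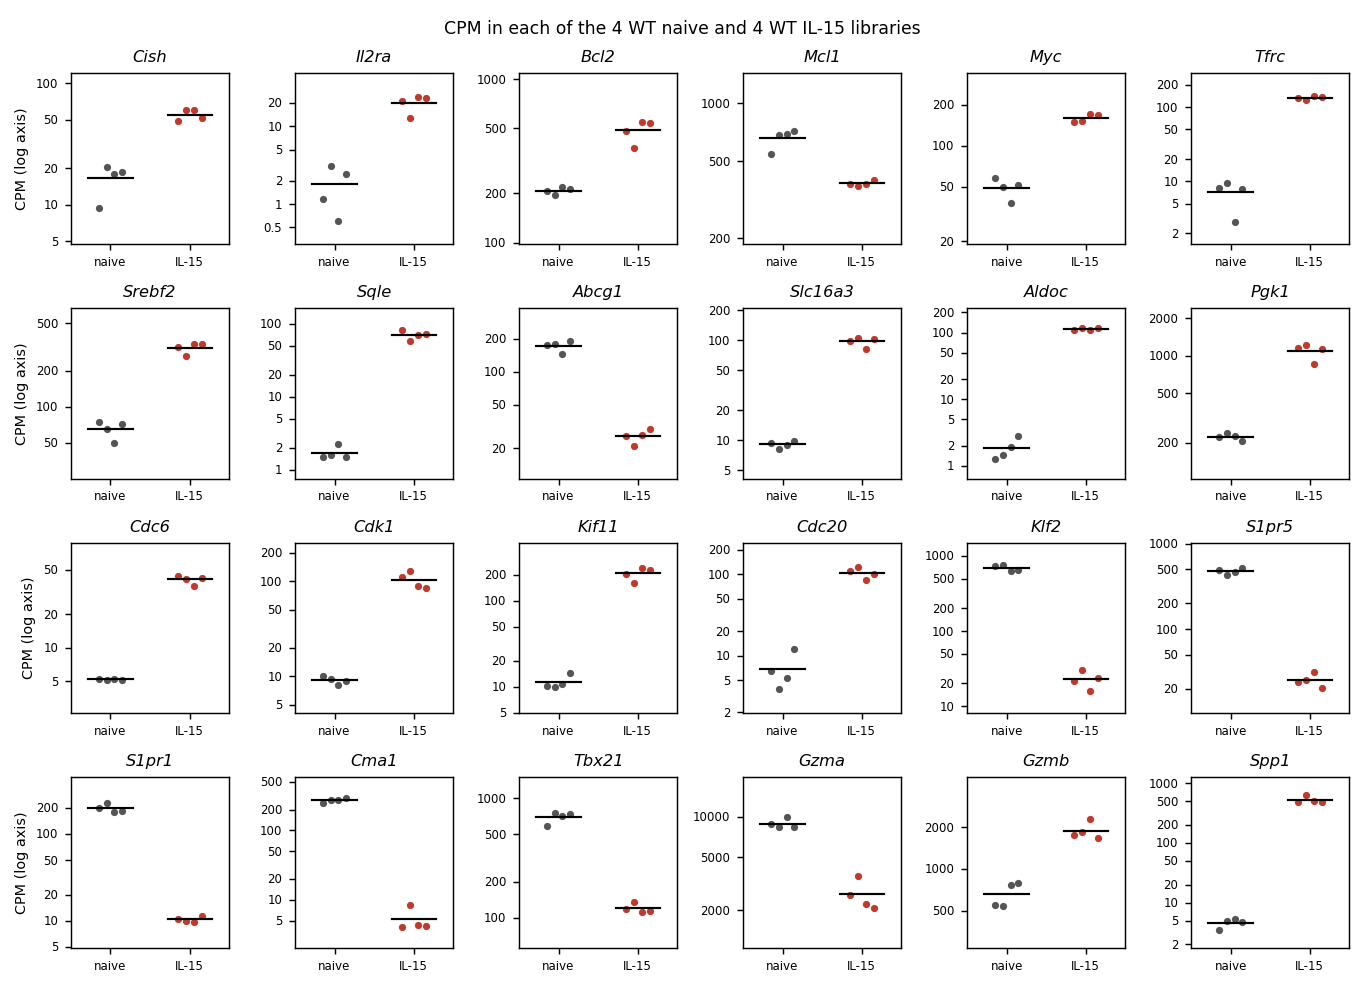
CPM on a logarithmic axis in each of the 4 naive (grey) and 4 IL-15 (red) WT libraries for 24 named genes, with the mean as a line. In each panel the groups are apart: Mcl1, Abcg1, Klf2, S1pr5, S1pr1, Cma1, Tbx21 and Gzma are lower and the other panels higher in the IL-15 libraries.

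Genes of growth, uptake and ribosome building rose. Myc, the growth-promoting transcription factor, measured 58.1, 49.9, 38.2 and 51.9 CPM in the naive and 148, 151, 169.9 and 169 CPM in the IL-15 libraries. The highest naive library lay below the lowest IL-15 library (rise of 1.69 ± 0.12, adjusted p = 2.83e-09). Its relative Mycn rose from 0.13 ± 0.178 to 6.58 ± 0.714 CPM, and Max, their partner, fell by 0.27 ± 0.10, a change that stood at 0.03 on library totals and was not called without naive replicate 4 or IL-15 replicate 3 or 4 (adjusted p of 0.0682, 0.0824 and 0.0669). Nolc1 and Ncl, nucleolar proteins, rose by 1.93 ± 0.15 and 1.32 ± 0.12. Of 30 MYC and ribosome biogenesis genes, all tested, 20 rose and only Max fell (median 0.69).

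Tfrc, the transferrin receptor that imports iron, measured 8.08, 9.46, 2.87 and 8.02 CPM in the naive and 133, 124, 142 and 137 CPM in the IL-15 libraries. All IL-15 libraries were far above all naive ones (rise of 4.23 ± 0.29, adjusted p = 1.01e-09). Slc7a5, the light chain of the large amino acid transporter, rose by 2.47 ± 0.24, whereas Slc3a2, its heavy chain, fell by 0.91 ± 0.10 (adjusted p = 2.67e-07), with 135 ± 4.42 CPM in naive and 71.8 ± 7.02 in IL-15 libraries. Of 20 tested nutrient transport genes of 21 listed, 12 rose and 2 fell (median 0.93; 4 fell with the length offset). In the PI3K, mTORC1 and FoxO list 6 of 23 rose and 6 fell (26.1% each, median 0.05), near the 26.4% and 26.0% over all tested genes. Mtor itself rose by 1.47 ± 0.24 and Foxo1, the factor that PI3K signalling restrains, measured 193, 178, 199 and 171 CPM in the naive and 93.5, 80.9, 84.1 and 109.9 CPM in the IL-15 libraries. No library overlapped for Foxo1 (it fell by 1.01 ± 0.11, adjusted p = 5.84e-07). This list depended on scale, with 12 higher and 3 lower on library totals and 5 and 10 with the length offset.

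Glycolysis genes rose. Of 21 tested genes of 22, 18 rose, none fell and 3 did not pass (median 1.70). The enzymes cover the pathway: Hk2 (hexokinase) rose by 3.48 ± 0.31, Pfkl by 1.72 ± 0.12, Aldoa by 1.92 ± 0.10, Gapdh by 1.702 ± 0.14, Pgk1 by 2.29 ± 0.12 and Ldha by 1.11 ± 0.12. Pgk1 measured 222, 240.3, 224 and 204 CPM in the naive and 1150, 1214, 854 and 1138 CPM in the IL-15 libraries. Aldoc, an aldolase mostly known from brain, measured 1.27, 1.44, 1.93 and 2.82 CPM in the naive and 111, 117, 110.3 and 117 CPM in the IL-15 libraries, the largest rise among the tested genes of the list (5.92 ± 0.20, adjusted p = 2.21e-13). Slc16a3 (MCT4), which exports lactate, went from 9.08 ± 0.684 to 97.6 ± 10.7 CPM, and Pdk1, which restrains entry of pyruvate into mitochondria, rose by 3.03 ± 0.18. Bnip3, a mitophagy gene induced by low oxygen, rose with them (25.2, 21.6, 19.6 and 25.4 CPM in the naive and 121, 117, 84.6 and 114 CPM in the IL-15 libraries).

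Genes of mitochondrial respiration were lower, the nuclear ones by small amounts. Of 42 nuclear genes of oxidative phosphorylation, all tested, none rose and 30 fell (median −0.52), 2 of them by at least 2-fold. Ndufa4 fell by 1.24 ± 0.19 and Uqcrc2 by 0.69 ± 0.10. On library totals 1 rose and 11 fell, with the length offset none rose and 21 fell, and without IL-15 replicate 3 none rose and 18 fell. Tricarboxylic acid cycle genes held 1 rise and 13 falls of 23 (median −0.40), but 5 rises and 1 fall on library totals and 0 rises and 6 falls with libraries blocked by number, so the direction of that list depends on the scale. Ogdh fell by 0.93 ± 0.10 and Pcx, pyruvate carboxylase, rose by 1.84 ± 0.50. Of the 15 mitochondrially encoded genes 12 fell and none rose (median −1.78). The ribosomal RNA gene mt-Rnr2 measured 5115, 4506, 6449 and 4362 CPM in the naive and 929, 1264, 936 and 875 CPM in the IL-15 libraries. All naive libraries lay above all IL-15 ones (it fell by 2.35 ± 0.29, adjusted p = 1.89e-06).

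Genes of sterol and fatty acid synthesis rose. Of 34 genes, all tested, 30 rose, 24 of them at least 2-fold, and 1 fell (median 1.47). Sqle, squalene epoxidase, measured 1.51, 1.6, 2.21 and 1.5 CPM in the naive and 83.2, 59.1, 69.9 and 73.3 CPM in the IL-15 libraries, and the groups did not overlap (rise of 5.39 ± 0.24, adjusted p = 5.13e-12). Srebf2, the master regulator of sterol genes, rose by 2.27 ± 0.13 and Fads2, a fatty acid desaturase, by 5.33 ± 0.57. Ebp was the gene that fell (−0.82 ± 0.14). Both listed exporters of cholesterol fell. Abcg1 measured 174, 177, 146 and 191 CPM in the naive and 26.1, 21, 26.3 and 30 CPM in the IL-15 libraries. Naive libraries were all above IL-15 libraries (it fell by 2.73 ± 0.13, adjusted p = 1.24e-11). Abca1, the other exporter, fell by 3.101 ± 0.29. Mylip, a ubiquitin ligase induced by the same sterol-sensing receptors, fell by 1.54 ± 0.13. In the list of fatty acid oxidation and cholesterol export none of 19 rose and 10 fell (median −0.33); on library totals 3 rose and 5 fell, and 5 fell with libraries blocked by number.

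Nucleotide synthesis and chromatin genes rose. Rrm2, the regulated subunit of ribonucleotide reductase, measured 21.8, 22.3, 18.7 and 24.2 CPM in the naive and 235, 251, 242 and 232 CPM in the IL-15 libraries. The groups stood far apart (rise of 3.46 ± 0.15, adjusted p = 3.44e-12). Mthfd2, a mitochondrial folate enzyme, rose by 2.09 ± 0.18 and Tyms, thymidylate synthase, by 2.08 ± 0.20, while Prps2 fell by 1.07 ± 0.14. Of 29 tested genes of 30 in this list 18 rose and 3 fell (median 0.54; 6 fell with the length offset). Of 22 chromatin genes 18 rose and 2 fell (median 1.94). Uhrf1, which guides maintenance methylation, rose by 3.72 ± 0.31, Ezh2, the Polycomb methyltransferase, by 1.76 ± 0.12 and Tet3 by 2.41 ± 0.18; Hdac1 fell by 0.38 ± 0.09, with −0.09 on library totals (adjusted p = 0.454).

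Cell cycle genes rose, and mitosis had the highest median of the 43 lists. Of 38 genes of DNA replication and S phase, all tested, 37 rose and none fell (median 1.68), and of 36 genes of mitosis all 36 rose (median 4.07), 35 of them at least 2-fold. Clspn, which couples replication to checkpoint signalling, measured 1.92, 1.68, 1.55 and 1.93 CPM in the naive and 86, 71, 94.1 and 83.3 CPM in the IL-15 libraries. Every naive library held fewer than the lowest IL-15 one (rise of 5.55 ± 0.20, adjusted p = 4.62e-13). Cdc6, which loads the replicative helicase, measured 5.23, 5.13, 5.27 and 5.13 CPM in the naive and 43.8, 41.3, 36 and 42.4 CPM in the IL-15 libraries. The IL-15 values were all above the naive ones (rise of 2.98 ± 0.16). Kif11, a spindle motor, measured 10.1, 9.82, 10.9 and 14.5 CPM in the naive and 203, 159.5, 236 and 228 CPM in the IL-15 libraries, with no overlap (rise of 4.18 ± 0.16, adjusted p = 9.29e-13). Cdk1, the mitotic kinase, measured 10.1, 9.38, 8.14 and 8.84 CPM in the naive and 109.9, 128, 88.6 and 85.6 CPM in the IL-15 libraries, and Cdc20, which activates the anaphase-promoting complex, measured 6.41, 3.89, 5.27 and 12 CPM in the naive and 108, 122, 85.5 and 99.9 CPM in the IL-15 libraries. Both were higher in every IL-15 library (rises of 3.495 ± 0.18 and 3.905 ± 0.32). Top2a rose by 4.16 ± 0.17 and Cenpf by 7.83 ± 0.56. Rpa2 was the S phase gene that did not pass.

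The G1 regulators split by family. The E2F factors E2f1, E2f7 and E2f8 rose by 2.79 ± 0.21, 5.16 ± 0.48 and 4.62 ± 0.19, with Mybl2 at 4.55 ± 0.32. E2f8 measured 2.45, 1.76, 1.74 and 1.93 CPM in the naive and 45.8, 35.2, 62.3 and 51.6 CPM in the IL-15 libraries. Cyclin E1 (Ccne1) rose by 2.05 ± 0.20, while the 3 D-type cyclins fell: Ccnd2 measured 793, 829, 838 and 886 CPM in the naive and 472, 435, 501 and 515 CPM in the IL-15 libraries. No IL-15 library reached the lowest naive library (it fell by 0.80 ± 0.12, adjusted p = 1.38e-05). Ccnd1 fell by 1.701 ± 0.59 from 3 ± 0.749 to 0.926 ± 0.364 CPM, and its call ended in 5 alternatives, among them those without naive replicate 3 or IL-15 replicate 1 or 3 (adjusted p of 0.0582, 0.0548 and 0.0619). Cdkn1b (p27), an inhibitor of cell cycle entry, measured 142, 152, 141 and 158 CPM in the naive and 154, 124, 154 and 157 CPM in the IL-15 libraries, overlapping throughout (−0.01 ± 0.13, adjusted p = 0.96). Cdkn1a (p21) rose by 1.78 ± 0.33 and Cdkn2d fell by 1.07 ± 0.16. In all, 16 of 25 tested G1 genes of 26 rose and 4 fell (median 1.26).

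Promoters of Cdc6, Cdk1 and Cdc20 are shown as examples of windows that hold a motif. Cdk1 and Cdc20 were chosen after their values were seen. The E2F motif was searched as TTTCCCGC or TTTGGCGC and the CHR motif, a site of genes expressed in G2 and mitosis, as TTTGAA, both on either strand; the letters of a CHR match can lie inside a STAT motif match. Capitals mark matches. Positions are chr11:98907901-98908200, plus strand, for Cdc6, chr10:69352863-69353162, minus strand, for Cdk1 and chr4:118437294-118437593, minus strand, for Cdc20 (RefSeq, GRCm38.p6).
Cdc6 (E2F): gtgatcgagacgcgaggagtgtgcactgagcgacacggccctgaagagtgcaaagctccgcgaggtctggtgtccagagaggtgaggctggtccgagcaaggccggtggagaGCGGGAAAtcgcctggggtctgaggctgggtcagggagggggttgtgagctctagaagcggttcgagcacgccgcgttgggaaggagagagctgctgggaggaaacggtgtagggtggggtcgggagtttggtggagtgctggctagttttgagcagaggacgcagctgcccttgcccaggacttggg
Cdk1 (CHR): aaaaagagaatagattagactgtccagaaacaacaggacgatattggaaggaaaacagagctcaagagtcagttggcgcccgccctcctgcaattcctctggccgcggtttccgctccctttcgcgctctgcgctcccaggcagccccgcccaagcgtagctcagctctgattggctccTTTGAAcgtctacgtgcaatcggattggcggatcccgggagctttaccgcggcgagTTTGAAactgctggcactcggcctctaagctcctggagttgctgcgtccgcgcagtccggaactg
Cdc20 (CHR): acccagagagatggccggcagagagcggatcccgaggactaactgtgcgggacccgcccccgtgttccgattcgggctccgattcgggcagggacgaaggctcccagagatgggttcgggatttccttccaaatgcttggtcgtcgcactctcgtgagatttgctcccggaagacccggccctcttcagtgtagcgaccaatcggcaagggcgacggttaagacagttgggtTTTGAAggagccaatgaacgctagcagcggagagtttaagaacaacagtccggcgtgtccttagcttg
The E2F letters lie 138 bases before the start of Cdc6. The CHR letters lie 71 and 15 bases before the start of Cdk1 and 18 before that of Cdc20. An E2F match was found for 11 of 32 S phase genes with a window (34.4%), 1.8% of all genes and 3.6% of tested genes. A CHR match was found for 22 of 30 mitosis genes (73.3%), 20.2% of all genes and 14.4% of tested genes. The E-box CACGTG that MYC binds was found for 6 of 24 MYC-list genes and 3 of 21 glycolysis genes (14.3%), and in 8.1% of all and 11.8% of tested genes. The sterol regulatory element was found for 0 of 24 sterol genes and 0.1% of all genes, which says only that these letters are not in these windows.

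Genes of quiescence fell. Of 23, all tested, 13 fell and 2 rose (median −0.72); 4 rose and 13 fell without naive replicate 4, and 6 rose and 13 fell on library totals. Klf2, the factor that keeps lymphocytes quiescent and circulating, measured 738, 755, 640.1 and 641 CPM in the naive and 21.6, 30.5, 16 and 23.8 CPM in the IL-15 libraries. The highest IL-15 library held 30.5 CPM and the lowest naive one 640.1 (it fell by 4.92 ± 0.19, adjusted p = 9.3e-13). Klf3 fell by 2.86 ± 0.14, Zfp36, which destabilises cytokine mRNA, by 2.05 ± 0.12, Tob1 by 1.78 ± 0.15 and Btg1 by 1.05 ± 0.10, while Kdm6b, a histone demethylase, rose by 2.54 ± 0.27.

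The cytotoxic granule changed in content. Gzma (granzyme A) had rank 6 by mean TPM among all genes in naive libraries, behind Eef1a1 and mitochondrial genes, and measured 8906, 8397, 9919 and 8366 CPM in the naive and 2616, 3638, 2221 and 2093 CPM in the IL-15 libraries. All IL-15 libraries were lower (it fell by 1.75 ± 0.17, adjusted p = 8.07e-08; rank 8). Gzmb (granzyme B) measured 546, 538, 759 and 795 CPM in the naive and 1759, 1834, 2286 and 1657 CPM in the IL-15 libraries and moved up from TPM rank 171 to rank 23. Its IL-15 values were all above the naive ones (rise of 1.51 ± 0.17, adjusted p = 6.27e-07). Gzmc measured 2.33, 2.16, 0.424 and 1.96 CPM in the naive and 162, 174, 130.4 and 106 CPM in the IL-15 libraries (rise of 6.35 ± 0.42), Gzme was at 0 in naive libraries and at 0.482, 1.19, 0.271 and 0.3 CPM in the IL-15 libraries, and since granzymes c to g are similar genes, reads may be split among them. Prf1, the pore former, measured 1706, 1673, 1692 and 2327 CPM in the naive and 813, 770.5, 957 and 877 CPM in the IL-15 libraries. Naive libraries were all above IL-15 libraries (it fell by 1.11 ± 0.12, adjusted p = 5.19e-07). Nkg7, a granule membrane protein, fell by 1.98 ± 0.15, Gzmm by 3.44 ± 0.24, Gzmk by 2.25 ± 0.34 and Serpinb9, which protects killers from granzyme B, by 1.23 ± 0.18. Of 25 tested genes of 27, 6 rose and 17 fell (median −0.75).

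Cytokines and chemokines changed gene by gene. Spp1 (osteopontin), a secreted matrix cytokine, measured 3.47, 4.89, 5.41 and 4.71 CPM in the naive and 489, 628, 501 and 489 CPM in the IL-15 libraries. It had the smallest adjusted p of all tested genes (rise of 6.83 ± 0.20, adjusted p = 7.74e-14). Ifng, the signature NK cell cytokine, measured 90.8, 76.2, 62.8 and 70.8 CPM in the naive and 55.9, 74.9, 65.4 and 50.1 CPM in the IL-15 libraries. For Ifng the groups overlapped (−0.29 ± 0.15, adjusted p = 0.125), and the change was 0.01 on library totals. Its fall passed with voom (−0.46, adjusted p = 0.00601) and without IL-15 replicate 2 (−0.39, adjusted p = 0.0398). Tnf, counted below with the TNF superfamily, rose by 3.19 ± 0.45. Vegfa rose by 1.95 ± 0.26 and Lif by 1.92 ± 0.31, while Pdgfb fell by 1.14 ± 0.12. Of 13 tested cytokine genes of 24, 4 rose (30.8%) and 3 fell (23.1%), against 26.4% and 26.0% over all tested genes (median −0.29). The split was 6 and 1 on library totals, 5 and 2 with the length offset, and 4 and 5 with voom. Among chemokines, Ccl5 measured 3534, 3859, 5152 and 4514 CPM in the naive and 792, 1005, 794 and 800.3 CPM in the IL-15 libraries. The IL-15 libraries were all lower (it fell by 2.33 ± 0.18, adjusted p = 8e-09). Ccl3, Ccl4 and Xcl1, which recruit other leukocytes, rose by 1.02 ± 0.18, 0.96 ± 0.20 and 0.97 ± 0.17, and Ccl1 from 0.0801 ± 0.16 to 14.9 ± 2.95 CPM, whereas Ccl6 fell by 5.83 ± 0.63. Of 11 tested chemokines of 15, 4 rose and 2 fell (median 0.55; 4 and 4 with voom). Of 18 tested TNF superfamily genes of 20, 6 rose (33.3%) and 5 fell (27.8%), again beside 26.4% and 26.0% over all tested genes. Their median was −0.26, and the split was 6 and 4 on library totals (median 0.04) and 7 and 8 with voom. Tnfsf8 stood at 1.796 ± 0.17 and Tnfsf14 (LIGHT) at −1.6 ± 0.16. Among 21 tested cytokine receptors of 24, 4 rose and 7 fell (median −0.27; 5 and 3 on library totals), including rises of Ifnar1 (1.36 ± 0.13) and Il12rb1 (0.97 ± 0.19) and a fall of Il7r (−2.005 ± 0.23).

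Activating receptors and their adaptors fell. Of 21 genes, all tested, 17 fell and 2 rose (median −1.2; 4 rose and 14 fell on library totals). Ncr1 (NKp46) measured 1381, 1257, 1209 and 1334 CPM in the naive and 428, 375, 457 and 414 CPM in the IL-15 libraries. Naive and IL-15 libraries did not overlap (it fell by 1.63 ± 0.12, adjusted p = 1.76e-09). Klrk1 (NKG2D) fell by 1.2 ± 0.15 and Klrb1c (NK1.1) by 1.42 ± 0.11. The ITAM adaptor Tyrobp (DAP12) measured 1052, 1024, 1019 and 923 CPM in the naive and 273, 416, 244 and 246 CPM in the IL-15 libraries (it fell by 1.77 ± 0.14), Hcst (DAP10) fell by 1.55 ± 0.21 and Cd247 (CD3ζ) by 1.21 ± 0.14. Fcer1g, the adaptor missing in the KO mice, measured 836, 769, 843 and 673 CPM in the naive and 262, 329.7, 258 and 254 CPM in the IL-15 libraries, lower in every IL-15 library (it fell by 1.498 ± 0.26, adjusted p = 8.81e-05). Icos, a costimulatory receptor of the CD28 family, rose by 1.54 ± 0.17. In the signalling genes behind these receptors 4 of 33 tested genes of 34 rose and 14 fell (median −0.28), with Lck at −1.11 ± 0.09 and Rasgrp2 at −2.65 ± 0.14; on library totals 8 rose and 11 fell.

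Lectin receptors for MHC class I and related ligands mostly fell too. Of 17 tested lectin and NKG2 receptors of 20, 13 fell and 3 rose (median −1.04). Klrg1, a marker of terminal maturity, measured 149.9, 172, 185 and 235 CPM in the naive and 31.9, 39.9, 31.5 and 28.4 CPM in the IL-15 libraries (it fell by 2.495 ± 0.15). Klrc1 (NKG2A) and Klre1 fell by 1.86 ± 0.18 and 1.93 ± 0.14, and Clec2d, a ligand of NKR-P1 receptors, rose by 2.77 ± 0.19. Of 11 tested Ly49 genes of 12, 7 fell and 3 rose (median −0.81). Klra8 (Ly49H) fell by 1.39 ± 0.15 and Klra4 (Ly49D) by 1.15 ± 0.18; Klra10 rose by 1.93 ± 0.49 from 1.1 ± 0.456 to 4.18 ± 0.396 CPM. Ly49 genes are close copies, so reads may be split among them and single values are uncertain.

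Genes of egress, homing and adhesion fell by large amounts. S1pr5, the sphingosine 1-phosphate receptor typical of NK cells, measured 494, 436, 461 and 518 CPM in the naive and 23.7, 25.2, 31.3 and 20.5 CPM in the IL-15 libraries. The highest IL-15 library held 31.3 CPM and the lowest naive one 436 (it fell by 4.24 ± 0.14, adjusted p = 2.97e-13). S1pr1 fell by 4.25 ± 0.22. Cx3cr1, Cmklr1 and Cxcr4 fell by 4.92 ± 0.39, 3.42 ± 0.17 and 2.08 ± 0.23, and Gpr183, an oxysterol receptor, rose by 1.39 ± 0.28. Of 19 tested genes of 20, 13 fell and 1 rose (median −1.19). Of 22 tested integrin and adhesion genes of 23, 15 fell and 3 rose (median −1.17; 5 rose on library totals). Itgb3, the partner chain of the αv integrin that binds osteopontin, measured 28.1, 28.2, 25.1 and 29.3 CPM in the naive and 219.5, 205, 215 and 269.5 CPM in the IL-15 libraries. Its rise of 3.04 ± 0.11 (adjusted p = 4.62e-13) was without overlap. Itga1 (CD49a) rose by 2.92 ± 0.32, while Itgam (CD11b) fell by 1.797 ± 0.16, Itgb7 by 1.98 ± 0.12 and Cd9 by 1.93 ± 0.12.

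Markers of mature circulating NK cells fell, and those of immature or tissue-resident cells went both ways. Of 20 tested maturity genes of 22, 16 fell and 1 rose (median −1.56). The gene that rose was Kit, the receptor for stem cell factor, which is better known from immature cells. Cma1, a mast cell type protease, measured 247, 278, 276 and 293 CPM in the naive and 4.04, 8.46, 4.39 and 4.26 CPM in the IL-15 libraries. No IL-15 library came near a naive one (it fell by 5.71 ± 0.22, adjusted p = 9.3e-13). In this list Klrg1, S1pr5, Itgam, Gzma and Cx3cr1 recur, with the values given above. Of 25 residency and immature genes, all tested, 7 rose (28%) and 8 fell (32%), near the 26.4% and 26.0% over all tested genes. Their median was −0.35, and on library totals 8 rose and 7 fell. Kit rose by 1.07 ± 0.19, Rora by 1.88 ± 0.18 and Inpp4b by 3.29 ± 0.28, while Il7r fell by 2.005 ± 0.23, Cd160 by 1.702 ± 0.15 and Cd7 by 1.17 ± 0.11.

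Transcription factors of the NK lineage were divided. Tbx21 (T-bet), needed for terminal maturation, measured 582, 748, 715 and 743 CPM in the naive and 118, 136, 112 and 114 CPM in the IL-15 libraries. The groups were far apart (it fell by 2.54 ± 0.14, adjusted p = 7.29e-11). Eomes, its relative that sustains NK identity, measured 771, 633, 586 and 678 CPM in the naive and 461, 384, 512 and 496 CPM in the IL-15 libraries; it fell by 0.53 ± 0.12 (adjusted p = 0.00135) and did not pass on library totals (−0.22, adjusted p = 0.134). Irf4, which supports expansion of activated lymphocytes, measured 4.45, 3.53, 4.85 and 2.39 CPM in the naive and 43.4, 34.4, 44.5 and 56.4 CPM in the IL-15 libraries (rise of 3.56 ± 0.25). Myb, Bach2 and Nfil3 rose by 1.64 ± 0.15, 1.61 ± 0.17 and 0.58 ± 0.11, and Batf3 and Zeb2 fell by 3.34 ± 0.62 and 0.92 ± 0.18. Of 35 tested factors, 11 rose and 14 fell (median −0.27; 12 and 7 on library totals).

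Immediate early genes moved in opposite directions. Fos measured 70, 43.5, 34.3 and 68.2 CPM in the naive and 1.87, 2.79, 2.17 and 1.38 CPM in the IL-15 libraries, and every IL-15 library lay below every naive one (it fell by 4.74 ± 0.26, adjusted p = 6.71e-11), and Junb and Ier2 fell by 1.91 ± 0.20 and 2.09 ± 0.21. Egr2, a factor induced by antigen and ITAM receptors, measured 7.31, 5.29, 11.7 and 17.5 CPM in the naive and 59, 58.4, 73.5 and 63.2 CPM in the IL-15 libraries. Its IL-15 values were all above the naive ones (rise of 2.599 ± 0.27), and Egr3 rose by 2.91 ± 0.36 and Nr4a2 by 1.11 ± 0.26. Of 27 AP-1, NR4A, EGR and NF-κB genes, all tested, 15 rose and 7 fell (median 0.42). Among checkpoint genes 6 of 16 tested of 19 rose and 5 fell (median 0.15; 9 and 4 on library totals, and 5 and 6 with the length offset). Havcr2 (TIM-3) went from 0.203 ± 0.289 to 5.76 ± 1.32 CPM, Lag3 rose by 1.45 ± 0.27 and Tigit by 0.99 ± 0.21. Of 19 tested genes of 20 in the TGF-β pathway 5 rose and 8 fell (median −0.34), with Pmepa1 at 2.86 ± 0.27 and Smad3 at −1.21 ± 0.12; leaving out naive replicate 1 or IL-15 replicate 1, 3 or 4 left 3 rises. The split was 6 and 3 on library totals and 3 and 11 with the length offset.

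Interferon-stimulated and antigen presentation genes were lower. Of 34 tested interferon-stimulated genes of 35, 22 fell and 4 rose (median −0.69). Ifit3, induced by type I interferon, measured 20, 12.3, 7.29 and 8.98 CPM in the naive and 1.18, 2.52, 0.843 and 0.929 CPM in the IL-15 libraries (it fell by 3.18 ± 0.39), and Usp18 fell by 1.81 ± 0.21, while Mx1 rose by 2.04 ± 0.48. H2-K1, a classical MHC class I gene, measured 6022, 5922, 4973 and 5780 CPM in the naive and 2412, 2853, 2279 and 2315 CPM in the IL-15 libraries. Naive values were all higher (it fell by 1.203 ± 0.11), as for B2m, its light chain (−1.02 ± 0.21), whereas Nlrc5, the transactivator of class I genes, rose by 2.44 ± 0.22. Of 18 antigen presentation and GIMAP genes 14 fell and 2 rose (median −0.57; 3 rose and 9 fell on library totals). Proteasome genes held 19 falls and no rise of 30 (median −0.43), none of 2-fold; on library totals 1 rose and 3 fell, with the length offset 17 fell, without IL-15 replicate 3, 12 fell, and with libraries blocked by number 10.

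Chaperone and stress genes fell in part. Of 22 ER chaperone and unfolded protein response genes 15 fell and 1 rose (median −0.50), with Calr at −0.97 ± 0.11 and Dnajb9 at −1.45 ± 0.21; on library totals 3 rose and 7 fell. Among 22 cytosolic and mitochondrial chaperones, 13 fell and 3 rose (median −0.42; 4 rose and 7 fell on library totals). Hsph1, an HSP110 chaperone, measured 166, 401, 227 and 293 CPM in the naive and 63.7, 51.1, 63.1 and 62.4 CPM in the IL-15 libraries. All naive libraries were above the IL-15 ones (it fell by 2.18 ± 0.24, adjusted p = 5.93e-07). Of 21 tested ATF4 and tRNA synthetase genes of 23, 8 rose and 5 fell (median 0.14; 3 fell without IL-15 replicate 4, and 11 rose and 2 fell on library totals). Asns, asparagine synthetase, rose by 3.72 ± 0.84 and Eprs, a tRNA synthetase, by 1.15 ± 0.11, of which 0.39 was left with the length offset (adjusted p = 0.0609). Autophagy and lysosome genes held 3 rises and 13 falls of 22 (median −0.46; 5 and 14 when the 8 WT libraries were fitted alone), and redox and iron genes 4 rises and 7 falls of 21 (median −0.14; 7 and 4 on library totals), where Tfrc is the largest rise.

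**Figure D4:**
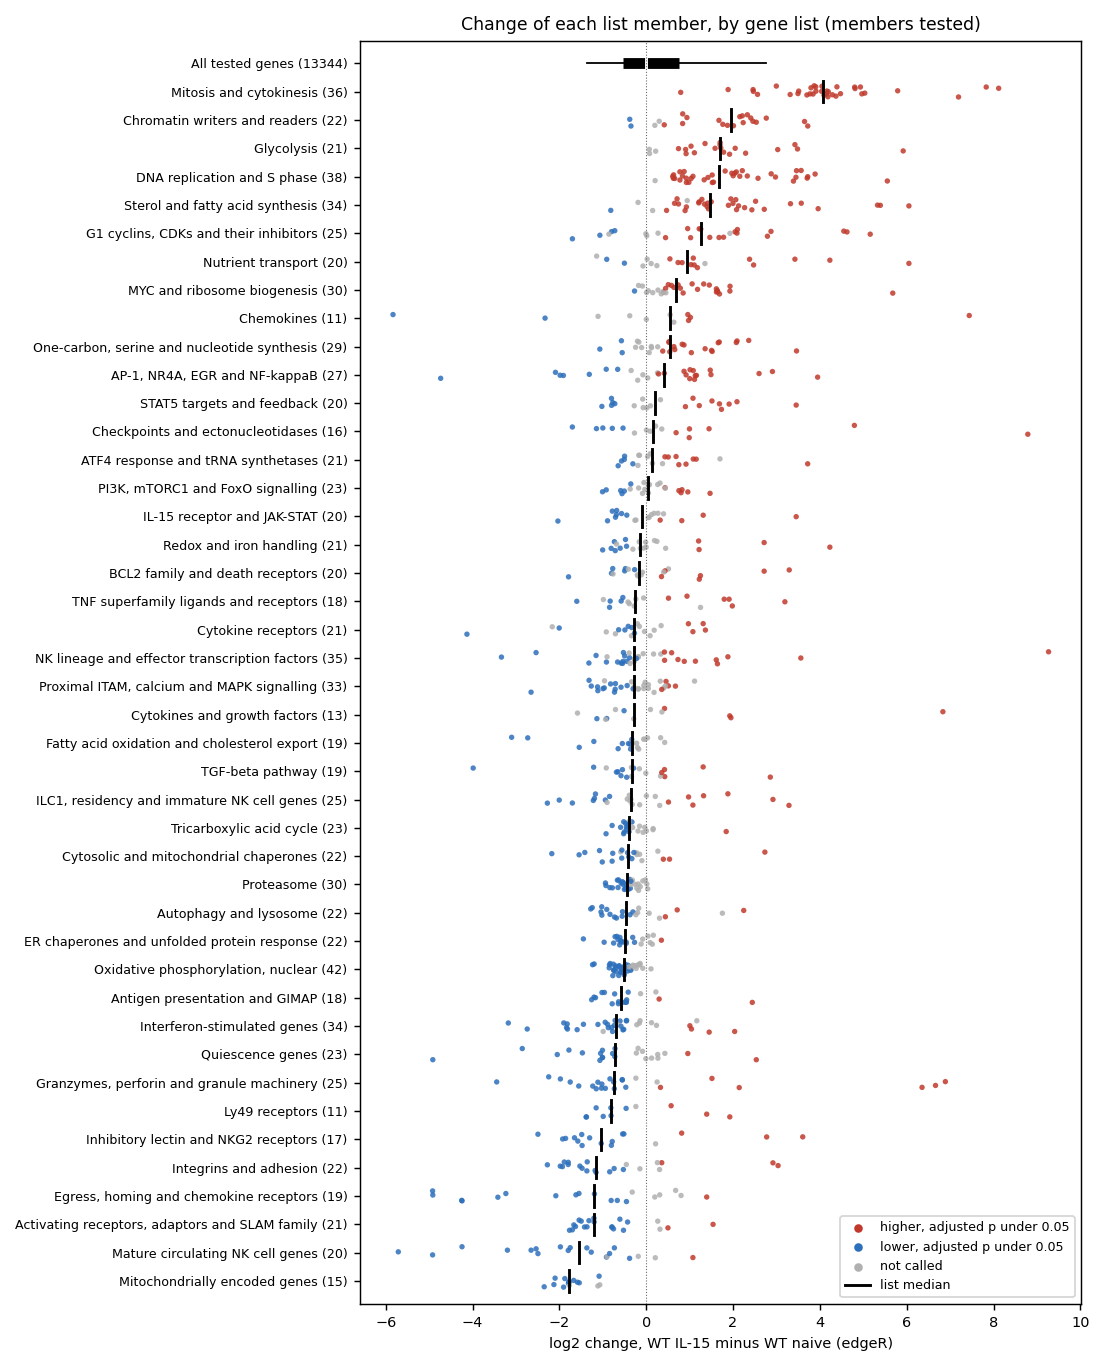
Log2 change of IL-15 over naive WT libraries (horizontal axis) for each tested member of the 43 gene lists (rows, ordered by median; number tested in brackets); red members were called higher, blue lower and grey not called, and black ticks are list medians. The top row gives all tested genes, with the quartiles as a thick bar, the median as a white tick and the middle 90% as a thin line. Medians run from −1.78 for mitochondrially encoded genes to 4.07 for mitosis.

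Noncoding genes were counted by class, beside 26.4% higher and 26.0% lower over all tested genes. Of 337 tested long intergenic noncoding RNAs 100 rose (29.7%) and 22 fell (6.53%; median 0.76). Of 651 pseudogenes, whose reads can belong to their parent genes, 62 rose (9.52%) and 115 fell (17.7%; median −0.27). These shares were not tested against those of all genes.

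The IL-15 change was compared with the one in KO spleen, measured in other libraries. Fcer1g, the deleted gene, measured 1.29, 7.13, 4.46 and 2.98 CPM in the KO naive and 6.01, 3.91, 8.01 and 4.63 CPM in the KO IL-15 libraries, all below every WT library. The difference passed for 205 of 13344 genes (1.54%), 63 with the higher and 142 with the lower value in KO (0.472 and 1.06%). Of these, 184 were called in WT. Among those 184, the change had the same sign in both genotypes and was larger in WT for 133, and larger in KO for 7. The others of the 184 had opposite signs in the genotypes, and 12 of them were called in both. Genes not called in WT are left out of these counts, which favours genes with a large change in WT. Cish rose by 1.73 ± 0.19 in WT and 2.998 ± 0.20 in KO (adjusted p of the difference = 0.0206), and Clspn by 5.55 ± 0.20 and 3.99 ± 0.19 (adjusted p = 0.00468). Of the 22 cytosolic and mitochondrial chaperones the difference passed for 6, all with the higher value in KO, and of the 22 ER chaperone and unfolded protein response genes for 1. Hspa8, the constitutive HSP70, fell by 1.08 ± 0.16 in WT and rose by 0.54 ± 0.16 in KO (adjusted p = 0.00197). Hsph1 stood at −2.18 ± 0.24 in WT and 0.33 ± 0.24 in KO (adjusted p = 0.00191), and Dnaja1 at −1.55 ± 0.18 and −0.03 ± 0.18 (adjusted p = 0.00507). Kdm6b rose by 2.54 ± 0.27 in WT and by 0.85 ± 0.25 in KO (adjusted p of the difference = 0.0238). Clec2d rose by 2.77 ± 0.19 and 1.44 ± 0.18 (adjusted p = 0.0124). Ccl6 fell in WT by 5.83 ± 0.63 and stood at −0.998 ± 0.54 in KO (adjusted p = 0.00507). For Fcer1g, the deleted gene, the KO value is not a response of an intact gene. Naive KO libraries also differ in depth, from 9.68 to 27.5 M counts, and in mitochondrial share, from 1.18 to 9.28%; their part in the difference was not tested.

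**Figure D5:**
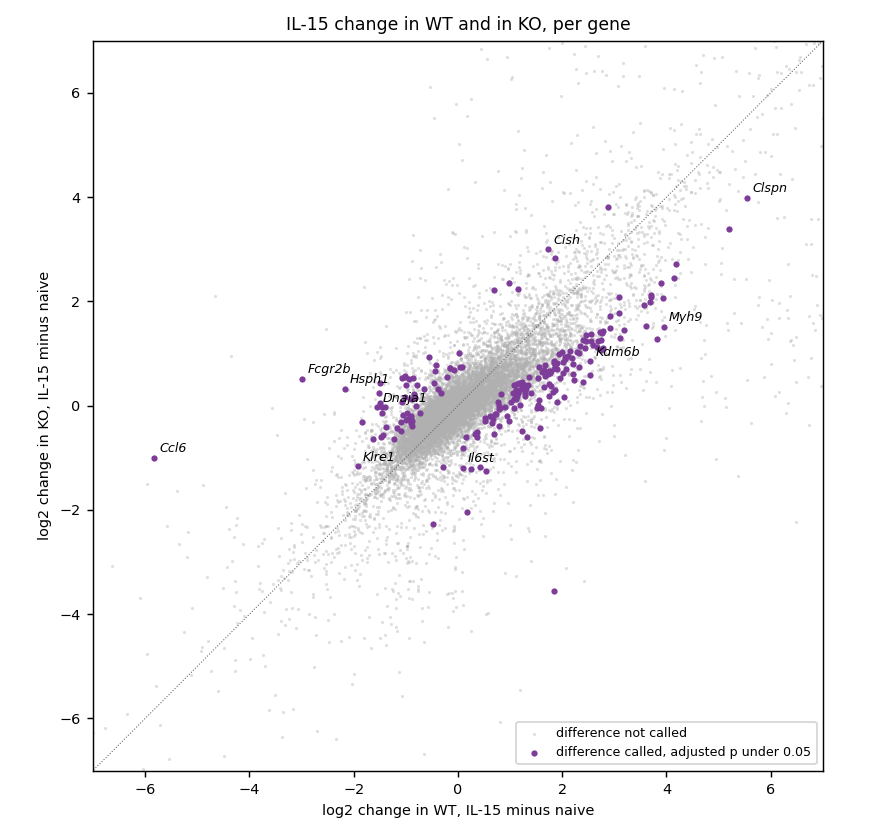
Log2 change of IL-15 over naive libraries in WT (horizontal axis) and in KO (vertical axis) for each tested gene; purple points are the 205 genes whose change differed between genotypes and the dotted line marks equal change. Axes end at 7 log2 units either way, which leaves out 123 genes, none of them purple. Among the 184 purple points that were also called in WT, the change had 1 sign and was larger in WT for 133 and in KO for 7. The others of the 184 had opposite signs.

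The count of genes that differ by genotype rested on single libraries. It was 301 higher and 413 lower in KO without WT IL-15 replicate 2, and 108 and 267 without WT naive replicate 1. Without any 1 of WT naive replicates 2 and 3, WT IL-15 replicates 1, 3 and 4 or KO IL-15 replicates 2 and 4 it fell to between 28 and 39 higher and 54 and 80 lower, and without KO naive replicate 2 or 4 or KO IL-15 replicate 1 to between 73 and 78 lower.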

How the data were processed

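Poly(A) RNA of NK cells was sequenced in 24 libraries, of which the 8 WT spleen libraries are described here. The tools named in the submitters' processing notes are cutadapt 1.9, STAR 2.5.2a and RSEM 1.2.30, and the build GRCm38; the authors deposited RSEM expected counts per gene, which are estimates (5.47% of values were not whole) and were rounded here. Totals and precision are given with the results. edgeR 4.0.16 (R 4.3.3) filtered genes with filterByExpr, scaled by TMM and fitted a quasi-likelihood model with 4 groups to all 16 spleen libraries, with Benjamini-Hochberg adjustment at 0.05. The SE is the log2 change divided by the square root of F. The script was tested on simulated data of 13032 genes: of 67 genes changed 2-fold, 62.7% were recovered, and of 66 changed 4-fold, 93.9%. Far fewer genes changed there than were called in the data.

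The members, the 43 gene lists and the 12 marker lists were chosen with earlier results of these data known. Genes were named by a rule: the 15 largest changes each way among genes reaching a mean of 1 CPM in the higher group without overlap of libraries, up to 4 per list by p, the largest change each way per list, and a fixed set of IL-15 and NK cell genes. Others, chosen after their values were seen, are B2m, Bach2, Bcl2l1, Btg1, Ccl3, Ccl4, Ccnd2, Ccnd3, Ccne1, Cd247, Cdc20, Cdk1, Cdk6, Cdkn1a, Cdkn2d, Cenpf, Cxcr4, Eef1a1, Egr3, Fads2, Gapdh, Gp9, Gzmk, Hcst, Hk2, Itga1, Itgam, Lag3, Ldha, Nfil3, Nr4a2, Pdk1, Pfkl, Pim2, Rpa2, Serpinb9, Srebf2, Tigit and Zeb2. Some genes of the lists are counted but not reported here by name. Gene length came from GENCODE M21. Alternatives were DESeq2 1.42.0, limma 3.58.1 voom, other scalings and filters, other library sets, blocks, and leaving out each library; the length offset was added after seeing the data.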

Additional observations from a re-analysis of the deposited data

Results flagged for a closer look

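Among the sets of 4 values checked for a library far from the other 3, 25 held one (6.38%), where chance gives about 1 in 20. IL-15 replicate 2 was the library in 12 of the 25. Its total was the lowest of its group, at 21.18 M counts against 29.79 to 30.55. It was highest for Ccl5 (1005 CPM), Cma1 (8.46 CPM), Fcer1g (329.7 CPM), Slc3a2 (82.2 CPM), Socs1 (48.7 CPM), Spp1 (628 CPM), Tyrobp (416.5 CPM) and mt-Rnr2 (1264 CPM). It was lowest for Cdkn1b (124 CPM), Hsph1 (51.1 CPM) and Tob1 (14.4 CPM). IL-15 replicate 3 had the highest mitochondrial share of its group, 2.78% against 1.76 to 1.88%, the lowest level of Pfkl (189 CPM), and the only counts of Cyp11a1 and Gp5 (0.0301 CPM each). IL-15 replicate 1 was lowest for Gzmk (2.29 CPM).

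In the naive group, replicate 2 was highest for Ccnd3 (669 CPM) and was the only library with Ccl1 (0.321 CPM). Replicate 1 was highest for Clec2d (23.6 CPM), and replicate 3 for Sqle (2.21 CPM), while it had no count of Gp9 (0 CPM). Replicate 4 was highest for E2f7 (1.82 CPM), Prf1 (2327 CPM) and Top2a (52.7 CPM).

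The log2 change with IL-15 differed between genotypes for 14 of the 196 genes described above by name (edgeR interaction term). Over all 13344 tested genes it differed for 205 (1.54%). Some named genes, Bach2 and Ccnd3 among them, were chosen after their values were seen, so the 14 are no neutral sample. KO minus WT was 4.84 for Ccl6, 2.504 for Hsph1, 1.93 for Fcer1g, the gene deleted in KO, 1.61 for Hspa8, 1.52 for Dnaja1, 1.27 for Cish, 0.77 for Klre1 and 0.58 for Ccnd3. It was −1.68 for Kdm6b, −1.57 for Clspn, −1.34 for Clec2d, −1.16 for Tet3, −0.96 for Bach2 and −0.94 for Nolc1. Adjusted p-values ran from 0.00191 for Hsph1 to 0.0496 for Klre1.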

How the results depend on the processing

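Of 274 named genes that passed, 253 kept their direction and their side of the threshold in all alternatives run, and 1, Max, changed sign (0.027 on library totals). On library totals 1888 genes were lower, 474 of them at least 2-fold, since that scale raised the median by 0.30. Leaving out a library gave 3247 to 3644 higher and 3062 to 3689 lower. The replicate numbers are shared by name only: deviations of same-numbered naive and IL-15 libraries correlated at 0.04, 0.08, −0.06 and 0.14. With a replicate block by number in the titles, 3373 genes were higher and 3470 lower; with a block by library number, 2642 and 2402. The difference between genotypes was the least stable count: 215 higher and 471 lower in KO with DESeq2, 99 higher with the length offset, and 28 to 301 higher and 54 to 413 lower when 1 library was left out; the cause was not tested. In the simulated data 16.4% of the 67 genes changed 1.5-fold were recovered. That simulation changed few of its 13032 genes, whereas 52.4% of tested genes were called here, so the adjusted p was harder to pass there. How often small changes were missed in these data cannot be read from it.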
